A study of Homo sapiens with 6 samples.

Results

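The genes described here are 10 negative feedback genes of the ERK pathway: the phosphatase genes DUSP1, DUSP4, DUSP5 and DUSP6, the Sprouty genes SPRY1, SPRY2 and SPRY4, the Sprouty-related genes SPRED1 and SPRED2, and PHLDA1. They were taken by symbol from a table of 35554 genes, and each of the 10 had a single row. RNA sequencing was performed on parental LNCaP cells (n = 3) and on LNCaP-enzaR cells (n = 3). LNCaP is an established, androgen-responsive line from a lymph node metastasis of prostate cancer, and LNCaP-enzaR is a derivative that was selected from it by continuous culture with enzalutamide, an inhibitor of androgen signaling, and then kept on the drug. No further allele or agent is named for either line. Each line has 1 culture history, its libraries came from flasks of that line harvested below confluence, and the labels do not state whether enzalutamide was in the medium at harvest. The spread between libraries is therefore the spread between flasks, and drug present at harvest and lasting resistance cannot be told apart.

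ERK is the last kinase of a cascade that carries signals from receptor tyrosine kinases, such as the ErbB family, through Ras, RAF and MEK. Active ERK induces genes whose products turn the cascade down again. DUSP proteins remove phosphate from ERK and related kinases, Sprouty proteins act between the receptors and Ras or RAF, and SPRED proteins bring the Ras inactivator neurofibromin to the membrane. Transcripts of several of these genes are widely used as readouts of ERK output, and low Sprouty expression has been described in prostate tumors.

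Libraries held 77759122 to 98616465 counts. Transcripts of the mitochondrial genome took 6.72% to 7.06% of the counts in parental libraries and 14.7% to 15.5% in LNCaP-enzaR libraries, and their part in the differences below was not tested. The epithelial label was checked with 8 luminal markers, all above 1 CPM in some library, whose summed level was 3838 to 3924 CPM in parental cells and 2509 to 2819 CPM in LNCaP-enzaR (CPM, counts scaled to 1000000 per TMM-scaled library). Its members went both ways: KLK2 (3.99-fold), KLK3 (8.45-fold), HOXB13 (1.79-fold) and FOLH1 (1.55-fold) fell, KRT8 (2.23-fold) rose, and KRT18, EPCAM and TMPRSS2 were higher by less than 1.5-fold. The 5 leukocyte markers summed to at most 0.243 CPM in any library. The 5 fibroblast markers analyzed summed to 14.7 to 17.9 CPM in parental and 8.21 to 8.95 CPM in LNCaP-enzaR libraries, and the 3 endothelial markers summed to 5.47 to 6.10 and 3.93 to 4.35 CPM. Nearly all of the endothelial sum was VWF (means of 5.74 and 4.15 CPM), with PECAM1 at no more than 4 counts and CDH5 at no more than 3. Most of the parental fibroblast sum was COL1A1, which fell from a mean of 13.4 to one of 4.29 CPM (log2 fold change −1.64, SE 0.109), while LUM (0.425 ± 0.151 to 1.44 ± 0.243 CPM) and PDGFRB (0.641 ± 0.038 to 1.73 ± 0.295 CPM) rose (SD, n = 3 each) and DCN had at most 1 count in parental and 2 to 20 counts in LNCaP-enzaR libraries. No marker analyzed was at 0 in every library, and the part of these cell types in the results was not tested. In such bulk samples, fewer cells with a transcript and less of it per cell cannot be told apart.

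The 250 bases before an annotated start are shown for 3 of the genes, because they differ in what happened to the transcript: DUSP1 rose and was the most abundant of the 10 genes in LNCaP-enzaR, SPRY1 showed the largest fall, and SPRY2 did not pass the test. The sequences are those of RefSeq (GRCh38.p14), read on the strand of the gene from 5′ to 3′, with motif matches in capitals.
DUSP1, chr5:172771196-172771445, minus strand: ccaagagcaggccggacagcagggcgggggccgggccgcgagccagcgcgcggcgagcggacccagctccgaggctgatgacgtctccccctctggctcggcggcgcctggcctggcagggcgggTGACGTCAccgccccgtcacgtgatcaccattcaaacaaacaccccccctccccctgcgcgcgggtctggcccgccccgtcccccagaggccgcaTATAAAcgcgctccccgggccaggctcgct
SPRY1, upstream of its outer start, chr4:123396545-123396794, plus strand: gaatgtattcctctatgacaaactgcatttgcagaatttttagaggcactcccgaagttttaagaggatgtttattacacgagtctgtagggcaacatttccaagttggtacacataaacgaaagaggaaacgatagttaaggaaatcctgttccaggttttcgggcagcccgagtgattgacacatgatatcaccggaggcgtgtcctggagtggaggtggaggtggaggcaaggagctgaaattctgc
SPRY2, upstream of its outer start, chr13:80341127-80341376, minus strand: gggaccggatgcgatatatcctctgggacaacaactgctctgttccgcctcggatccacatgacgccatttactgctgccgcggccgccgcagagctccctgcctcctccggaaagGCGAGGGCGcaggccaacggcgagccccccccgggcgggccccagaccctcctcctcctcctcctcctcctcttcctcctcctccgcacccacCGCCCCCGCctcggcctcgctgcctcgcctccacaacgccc
No base of these 3 windows lies in an annotated exon. Each window was searched on both strands for the ETS core CCGGAAG, the cyclic AMP response element TGACGTCA, the AP-1 site TGANTCA, the EGR site GCGNGGGCG, the CArG box bound by serum response factor, and the TATA box TATAAA. The DUSP1 window held a cyclic AMP response element, which 1.65% of 35116 promoter windows of the same length hold, and a TATA box, which 10.7% hold. The SPRY2 window held 2 EGR sites, against 8.41% of all windows with at least 1. The other 2 starts listed for SPRY2 had none of the 6 motifs in their windows. The SPRY1 window shown held none, which says only that these letters are not in it, whereas the window of the inner SPRY1 start (chr4:123398136-123398385), not printed because it lies in annotated exons, held an ETS core (8.52% of all windows) and an EGR site. Of the 10 genes, 8 had an entry in the promoter table, with 12 starts in all, and DUSP4 and DUSP5 had none. Among the genes not shown, the SPRY4 window held an EGR site and that of the inner SPRED2 start a TATA box. The windows of DUSP6, PHLDA1, SPRED1 and the outer SPRED2 start held none of the 6 motifs. Annotated exons cover all 250 bases of the DUSP6 window, 170 of the SPRY4 window and 38 of the outer SPRED2 window.

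Of the 10 genes, 6 were higher and 2 were lower in LNCaP-enzaR when called at 1.5-fold or more with an adjusted p no higher than 0.05 (edgeR quasi-likelihood test, Benjamini-Hochberg adjusted over 19711 genes). DUSP1, DUSP5, DUSP6, SPRY4, SPRED1 and PHLDA1 rose, and DUSP4 and SPRY1 fell. SPRY2 and SPRED2 did not pass. The comparison called 42.7% of all genes tested, 23.3% of them as higher and 19.5% as lower, so the share that fell among the 10 genes was near that of all genes and the share that rose was above it. The median log2 fold change of the 10 genes was 0.95, against 0.01 for all genes tested. The libraries of the lines did not overlap for 9 of the 10 genes, SPRY2 being the exception, and for 70.6% of all genes tested.

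**Figure D1:**
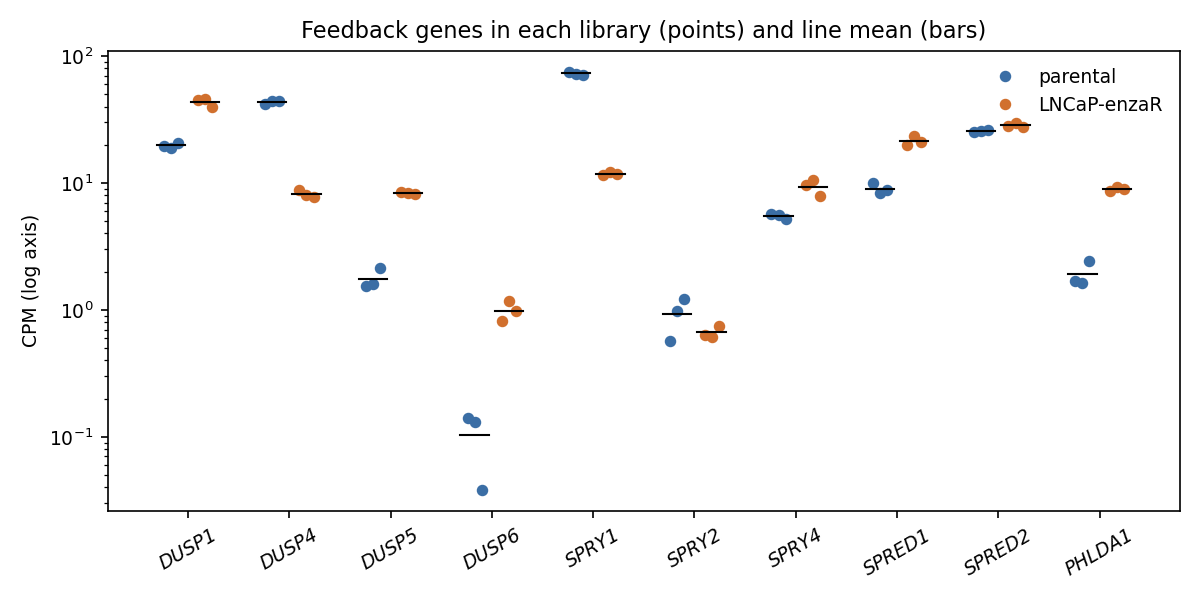
Expression of the 10 feedback genes in CPM (log axis), with a point for each of the 3 parental (blue) and 3 LNCaP-enzaR (orange) libraries and a bar at the mean of each line. The points of the lines are apart for every gene except SPRY2, with SPRY1 and DUSP4 lower in LNCaP-enzaR.

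DUSP1 encodes an inducible nuclear phosphatase that acts on p38 and JNK as well as on ERK. Its level (ENSG00000120129.6, chromosome 5, 172768096 to 172771195, GRCh38) was 19.6, 19.0 and 20.7 CPM in parental libraries 1 to 3 and 45.0, 45.9 and 39.8 CPM in LNCaP-enzaR libraries 1 to 3. All LNCaP-enzaR libraries were above all parental libraries. The mean went from 19.8 ± 0.860 to 43.6 ± 3.30 CPM (SD, n = 3 each). On the log2 scale the difference was 1.14 (SE 0.073, edgeR adjusted p = 5.22e-09).

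DUSP4, a close relative of DUSP1 that is also nuclear and inducible, went the other way. It was measured at 41.7, 44.3 and 43.9 CPM in parental libraries and at 8.84, 8.06 and 7.69 CPM in LNCaP-enzaR (ENSG00000120875.9, chromosome 8, 29333064 to 29350684). Parental cells thus held 5.29-fold more, with no overlap between the lines. The log2 fold change was −2.40 (SE 0.076, edgeR adjusted p = 2.99e-12).

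DUSP5 encodes a nuclear phosphatase that is selective for ERK. It was found at 1.55, 1.61 and 2.13 CPM in parental libraries and 8.43, 8.33 and 8.16 CPM in LNCaP-enzaR (ENSG00000138166.6, chromosome 10, 110497907 to 110511533). The rise was 4.74-fold (log2 fold change 2.25, SE 0.130, edgeR adjusted p = 1.59e-09). All LNCaP-enzaR libraries were above all parental libraries.

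DUSP6, the ERK-selective phosphatase of the cytoplasm, showed the largest fold change of the 10 genes at the lowest level in parental cells. It had 13, 12 and 3 counts in parental libraries and 70, 103 and 97 counts in LNCaP-enzaR (ENSG00000139318.8, chromosome 12, 89347235 to 89352501). In CPM the mean went from 0.104 ± 0.057 to 0.985 ± 0.178 (SD, n = 3 each), so that DUSP6 stayed near 1 CPM after a rise of 3.20 on the log2 scale (SE 0.394, edgeR adjusted p = 5.33e-06). Parental replicate 3 was the lowest, and without it the log2 fold change was 2.84. Exons of a gene on the opposite strand cover 28.6% of the exonic bases of DUSP6, and reads of the 2 genes cannot be told apart because the strand setting of the counting is not stated.

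SPRY1 was the most abundant Sprouty transcript of parental cells and the feedback gene with the largest fall. It was measured at 75.3, 72.4 and 71.0 CPM in parental libraries and 11.5, 12.2 and 11.8 CPM in LNCaP-enzaR (ENSG00000164056.11, chromosome 4, 123396795 to 123403760). The lines were far apart relative to the spread within each. The mean fell from 72.9 ± 2.19 to 11.8 ± 0.316 CPM (SD, n = 3 each), which was 6.16-fold (log2 fold change −2.62, SE 0.065, edgeR adjusted p = 2.90e-13).

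SPRY4 rose while SPRY1 fell. Its level was 5.68, 5.61 and 5.21 CPM in parental libraries and 9.56, 10.5 and 7.93 CPM in LNCaP-enzaR (ENSG00000187678.10, chromosome 5, 142310427 to 142326455). The 1.69-fold rise (log2 fold change 0.76, SE 0.111, edgeR adjusted p = 3.01e-05) was the smallest of the 6 and lay close to the 1.5-fold limit.

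SPRY2 was scarce in both lines, at 0.573, 0.978 and 1.22 CPM in parental libraries and 0.637, 0.611 and 0.746 CPM in LNCaP-enzaR (ENSG00000136158.12, chromosome 13, 80335976 to 80341126). Parental replicate 1 lay below all LNCaP-enzaR libraries, whereas the other 2 parental libraries lay above them. The log2 fold change was −0.47 (SE 0.288, edgeR adjusted p = 0.170), with a 95% interval of −1.03 to 0.10 that reaches past a 1.5-fold fall. Without parental replicate 1 the value was −0.73 and passed the threshold (adjusted p = 0.0285, against 0.0285 to 0.565 over the alternatives run).

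SPRED1 rose, and SPRED2 differed little. SPRED1 was found at 9.99, 8.28 and 8.80 CPM in parental libraries and 19.9, 23.6 and 21.2 CPM in LNCaP-enzaR (ENSG00000166068.13, chromosome 15, 38252836 to 38357249). The change was 2.39-fold (log2 fold change 1.26, SE 0.093, edgeR adjusted p = 2.39e-08). SPRED2, which is more abundant than SPRED1 per length in both lines, was measured at 25.1, 25.7 and 26.2 CPM in parental libraries and 28.2, 29.8 and 27.7 CPM in LNCaP-enzaR (ENSG00000198369.10, chromosome 2, 65310851 to 65432637). The lines did not overlap, but the log2 difference of 0.15 (SE 0.065, edgeR adjusted p = 0.0512) missed the threshold, and its 95% interval of 0.03 to 0.28 lies below 1.5-fold. Its adjusted p was 0.00343 to 0.175 over the alternatives, none of which reached a 1.5-fold change.

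PHLDA1 encodes a protein with a pleckstrin homology-like domain whose transcript is induced by ERK signaling. It was measured at 1.70, 1.62 and 2.42 CPM in parental libraries and 8.59, 9.38 and 8.96 CPM in LNCaP-enzaR (ENSG00000139289.14, chromosome 12, 76025447 to 76031776). All LNCaP-enzaR libraries were above all parental libraries. The rise was 4.72-fold (log2 fold change 2.24, SE 0.141, edgeR adjusted p = 4.08e-09), nearly that of DUSP5. Exons of the antisense gene PHLDA1-AS1 cover 9.35% of its exonic bases.

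**Figure D2:**
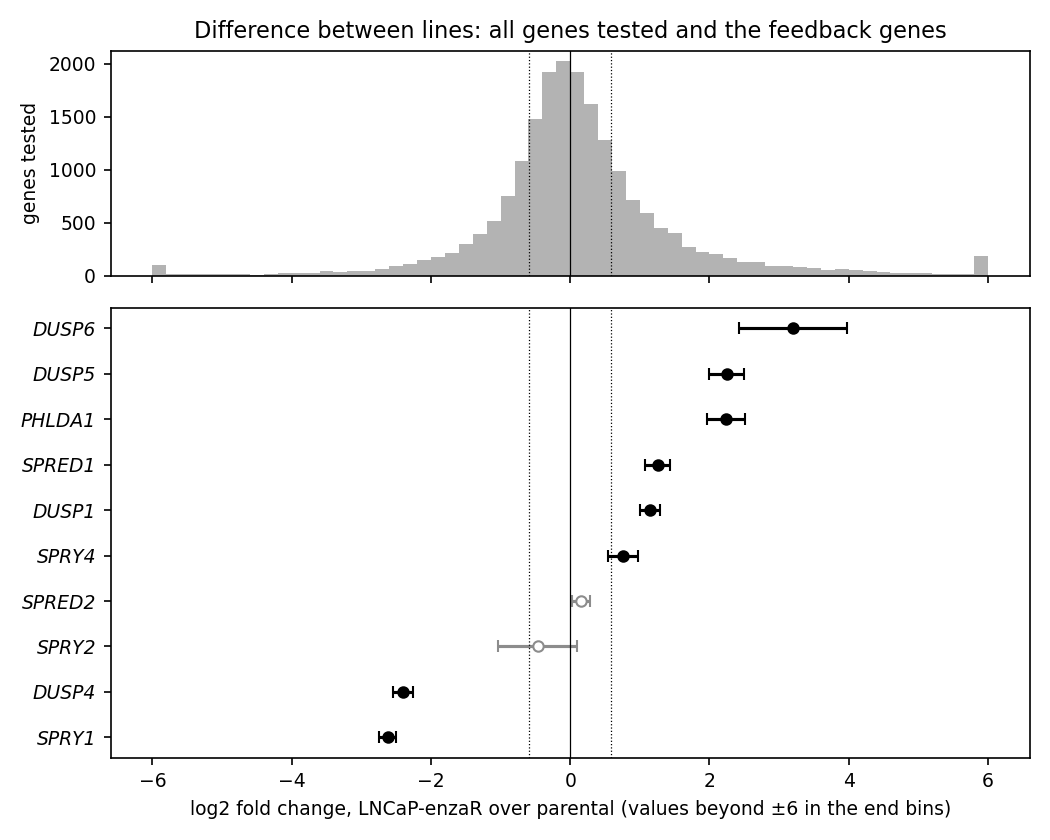
Top, number of genes tested by log2 fold change (LNCaP-enzaR over parental). Bottom, the 10 feedback genes with 95% intervals, filled where past the threshold and open where not, with dotted lines at a 1.5-fold change. DUSP4 at −2.40 and SPRY1 at −2.62 lie in the left tail, DUSP5, PHLDA1 and DUSP6 between 2.24 and 3.20 in the right tail, and SPRED2 near the center.

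Levels were compared between genes only per length, as RPKM, which is CPM per kilobase of annotated exon. In parental cells the order was SPRY1 (18.4 ± 0.554 RPKM), DUSP1 (9.82 ± 0.427), DUSP4 (5.96 ± 0.193), SPRED2 (4.66 ± 0.104), SPRED1 (1.16 ± 0.114), SPRY4, DUSP5, PHLDA1, SPRY2 and DUSP6 (0.027 ± 0.015; SD, n = 3). The libraries of SPRY4 and DUSP5 overlapped, as did those of PHLDA1 and SPRY2. In LNCaP-enzaR the order was DUSP1 (21.6 ± 1.64 RPKM), SPRED2 (5.18 ± 0.196), DUSP5 (3.28 ± 0.052), SPRY1 (2.99 ± 0.080), SPRED1 (2.78 ± 0.246), PHLDA1, SPRY4, DUSP4, DUSP6 and SPRY2 (0.207 ± 0.022). There the libraries of SPRY1 and SPRED1, of PHLDA1 and SPRY4, of SPRY4 and DUSP4, and of DUSP6 and SPRY2 overlapped. SPRY1 thus moved from the top of the order to the fourth place, and DUSP4 from the third to the eighth. Some of these orders depend on the length used. With canonical transcript lengths, PHLDA1 and SPRY4, and DUSP6 and SPRY2, change places in LNCaP-enzaR, and PHLDA1 and SPRY2 do so in parental cells. The order of SPRY1 and DUSP5 in LNCaP-enzaR also depends on it. SPRY1 has 3963 exonic bases but a canonical transcript of 2603, against 2535 and 2477 for DUSP5.

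The makeup of each family, taken over the genes above only, shifted with these changes. Summed per length, the 3 Sprouty genes fell from 19.5 ± 0.485 to 4.62 ± 0.223 RPKM, a 4.23-fold difference. SPRY1 made up 94.2% ± 0.498 of the Sprouty sum in parental cells and 64.7% ± 2.31 in LNCaP-enzaR, and SPRY4 made up 4.29% ± 0.123 and 30.7% ± 2.98. The 4 DUSP genes together rose from 16.5 ± 0.586 to 26.3 ± 1.75 RPKM. DUSP1 made up 59.5% ± 1.11 of that sum in parental cells and 82.3% ± 0.807 in LNCaP-enzaR, while DUSP4 went from 36.1% ± 1.30 to 4.29% ± 0.232. DUSP2, outside the 10 genes and named after its values were seen, was alone at 38.4 ± 1.05 and 27.6 ± 4.35 RPKM. Other MAPK phosphatase genes went both ways, so no direction is given for MAPK phosphatase transcripts as a whole. The SPRED sum went from 5.83 ± 0.079 to 7.96 ± 0.425 RPKM, with SPRED1 at 20.0% ± 1.84 and 34.9% ± 1.37 of it (SD, n = 3 each). The sum over all 10 genes was 41.7 to 42.6 RPKM in parental and 37.99 to 42.4 RPKM in LNCaP-enzaR libraries, which overlap. On the log2 scale this last difference was −0.062, but it was −0.32 with the length of the canonical transcript and 0.039 with upper-quartile scaling, so no direction is given for it. The sums are descriptions, given without a test.

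**Figure D3:**
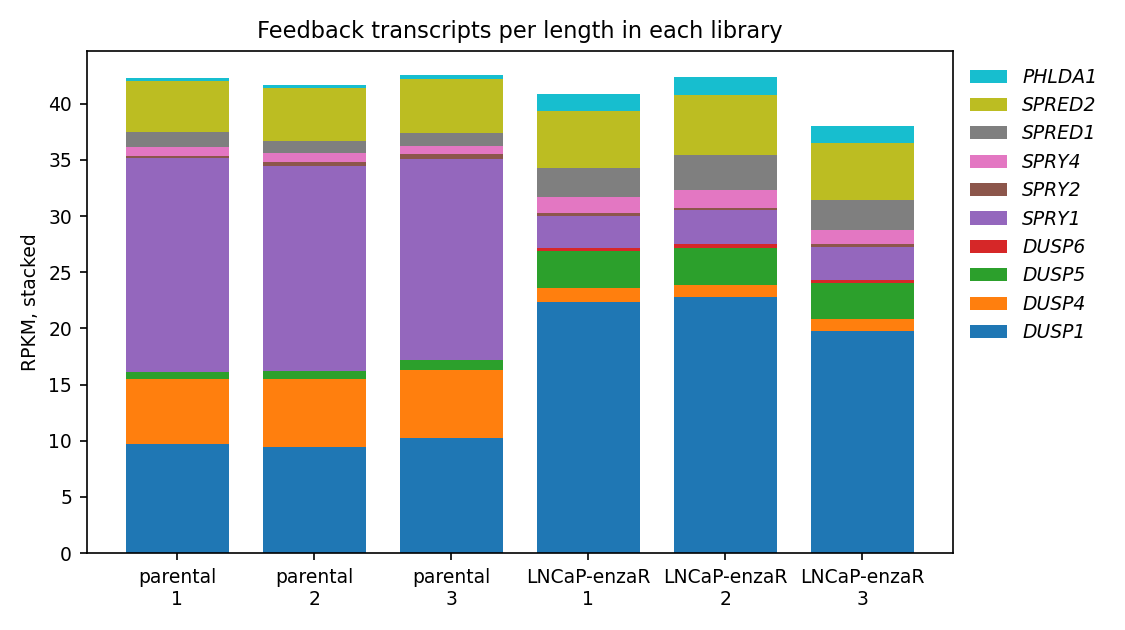
Stacked RPKM of the 10 feedback genes in each of the 6 libraries, with 1 color per gene. In the parental bars SPRY1 is the largest segment, near 18 to 19 RPKM, and in the LNCaP-enzaR bars DUSP1 is, at 19.8 to 22.8 RPKM.

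Ratios of counts within a library, which do not depend on scaling, were compared for 8 pairs of these genes. The log2 ratio of SPRY4 to SPRY1 was −3.73 ± 0.039 in parental and −0.35 ± 0.194 in LNCaP-enzaR libraries, a difference of 3.38. That of DUSP1 to DUSP4 was −1.13 ± 0.077 and 2.41 ± 0.087, a difference of 3.54. These ratios are not corrected for gene length, so only their difference between the lines is read. That of SPRED2 to SPRED1 was 1.51 ± 0.164 and 0.41 ± 0.087, and that of DUSP5 to DUSP4 was −4.63 ± 0.232 and 0.02 ± 0.081 (SD, n = 3 each). Each of the 8 pairs separated the lines completely and had the smallest p that 3 libraries against 3 allow (two-sided exact permutation test, p = 0.10, Benjamini-Hochberg adjusted p = 0.10). For SPRY4 to SPRY1, and for DUSP1, DUSP5 and DUSP6 to DUSP4, this separation follows from the single-gene levels and adds no evidence to them. The share of other gene pairs that separate was not computed, and 70.6% of single genes tested did. For DUSP5 to DUSP6 the gap was narrow, from 3.41 at the lowest in parental to 3.37 at the highest in LNCaP-enzaR libraries. For SPRY4 to SPRY2 it was also narrow, from 3.30 at the highest in parental to 3.40 at the lowest in LNCaP-enzaR libraries. DUSP6 and SPRY2 had low counts.

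Other genes of the pathway were described from lists of related genes. Of 8 other MAPK phosphatase genes, 2 were higher and none was lower past the threshold (1 was lower without LNCaP-enzaR replicate 1), with a median log2 fold change of −0.04. The share that rose was near the 23.3% of all genes tested. DUSP10, which acts on JNK and p38, rose from 6.16 ± 0.639 to 13.02 ± 0.779 CPM (log2 fold change 1.08, edgeR adjusted p = 2.07e-07), and DUSP8, of like specificity, rose from 34.6 ± 0.360 to 58.7 ± 5.27 CPM (0.76, adjusted p = 2.55e-07). DUSP16 was at 81.8 ± 0.070 and 110.7 ± 1.16 CPM, short of the fold limit at 0.44. DUSP2, DUSP7 and DUSP9, relatives of the 4 DUSP genes above that were named after their values were seen, had log2 fold changes of −0.48, −0.28 and −0.40, below the fold limit.

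Of the remaining Sprouty, SPRED and PHLDA genes, SPRED3 fell from 1.42 ± 0.128 to 0.686 ± 0.271 CPM (log2 fold change −1.04, edgeR adjusted p = 0.00325) and PHLDA2 rose from 13.8 ± 1.28 to 22.4 ± 3.05 CPM (0.70, adjusted p = 2.44e-05). PHLDA3 was at 63.2 ± 1.12 and 49.5 ± 5.47 CPM (−0.35), below the fold limit. SPRY3, with 5 to 6 counts in parental and 7 to 27 counts in LNCaP-enzaR libraries, did not pass the filter on low counts.

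Of 14 other negative regulators of Ras-ERK signaling, 3 were higher and 1 was lower, with a median log2 fold change of 0.02. With library totals, without parental replicate 3 or without LNCaP-enzaR replicate 2, 2 were lower. The share that rose was near the 23.3% of all genes tested, and the share called was below 42.7%. TRIB1, a pseudokinase that promotes protein degradation through COP1 and has been described to act on MAPK signaling in either direction, rose from 16.4 ± 0.953 to 131.4 ± 1.48 CPM (log2 fold change 3.00, edgeR adjusted p = 6.60e-14). IL17RD, also called Sef, which restrains ERK signaling, rose from 6.36 ± 0.419 to 16.5 ± 0.639 CPM (1.38, adjusted p = 3.20e-09). LZTR1, named after its values were seen and with 35.7% of its exonic bases in exons of another gene, was higher at 0.69. CBL, a ubiquitin ligase for receptor tyrosine kinases, fell from 36.8 ± 1.85 to 22.3 ± 1.07 CPM (−0.72, adjusted p = 3.52e-07). NF1, the neurofibromin that SPRED proteins recruit, was at 103.7 ± 0.575 and 101.1 ± 7.18 CPM, a log2 difference of −0.04 with an SE of 0.061 (edgeR adjusted p = 0.619), also named after its values were seen.

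Of 20 genes of the Ras-ERK cascade itself, 2 were higher and 3 were lower, with a median log2 fold change of −0.23, so the share called was below that of all genes tested (42.7%). The balance of these calls was not stable: 5 were higher and 2 lower with upper-quartile scaling, and 4 were higher and 2 lower without LNCaP-enzaR replicate 1. RPS6KA3, which encodes the ERK-activated kinase RSK2, fell from 119.5 ± 5.85 to 25.7 ± 1.29 CPM (log2 fold change −2.22, edgeR adjusted p = 1.48e-12). MAP2K1, the gene of MEK1, rose from 89.5 ± 2.99 to 173.2 ± 8.21 CPM (0.95, adjusted p = 2.33e-09), with 20.5% of its exonic bases in exons on the opposite strand. HRAS fell from 68.8 ± 5.76 to 36.2 ± 2.96 CPM (−0.93, adjusted p = 8.37e-08). The scaffold gene KSR1 (3.64, at 2.21 ± 0.232 CPM in LNCaP-enzaR) and NRAS (−0.65) were the other 2, both named after their values were seen. NRAS was −0.55 with upper-quartile scaling and −0.58 without LNCaP-enzaR replicate 1, short of the fold limit.

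Of 18 other genes that ERK signaling induces, 15 passed the filter, 8 were higher and 1 was lower, with a median log2 fold change of 0.68, against 23.3% of all genes tested that were higher and 19.5% that were lower. EGR1, an immediate early transcription factor, rose from 0.608 ± 0.152 to 21.5 ± 1.99 CPM (log2 fold change 5.14, edgeR adjusted p = 1.11e-12). ETV5, an ETS factor whose transcript falls when MEK is inhibited, rose from 0.216 ± 0.099 to 8.04 ± 1.15 CPM (5.18, adjusted p = 7.69e-11). FOS rose from 0.419 ± 0.128 to 4.65 ± 0.509 CPM (3.47, adjusted p = 1.66e-09). EGR3, named after its values were seen, was the gene that fell past the threshold (−2.04). It had 28 to 56 counts in parental and 4 to 17 counts in LNCaP-enzaR libraries. The other tested genes that were not called are likewise named after their values were seen. CCND1 (−0.49) and MCL1 (−0.22) were lower in LNCaP-enzaR, below the fold limit. LIF (0.57), FOSL1 (0.41), MYC (0.22) and EPHA2 (0.20) were higher, also below it, and FOSL1 and EPHA2 missed the adjusted p limit as well. EGR2, also named after its values were seen, held no count in any parental library and was at least 5.86-fold higher in LNCaP-enzaR, computed against 3 counts per parental library, and the median of the list was the same with EGR2 at that bound. IER3, EPHA4 and HMGA2, likewise named afterward, held at most 11 counts in any library and were not tested.

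**Figure D4:**
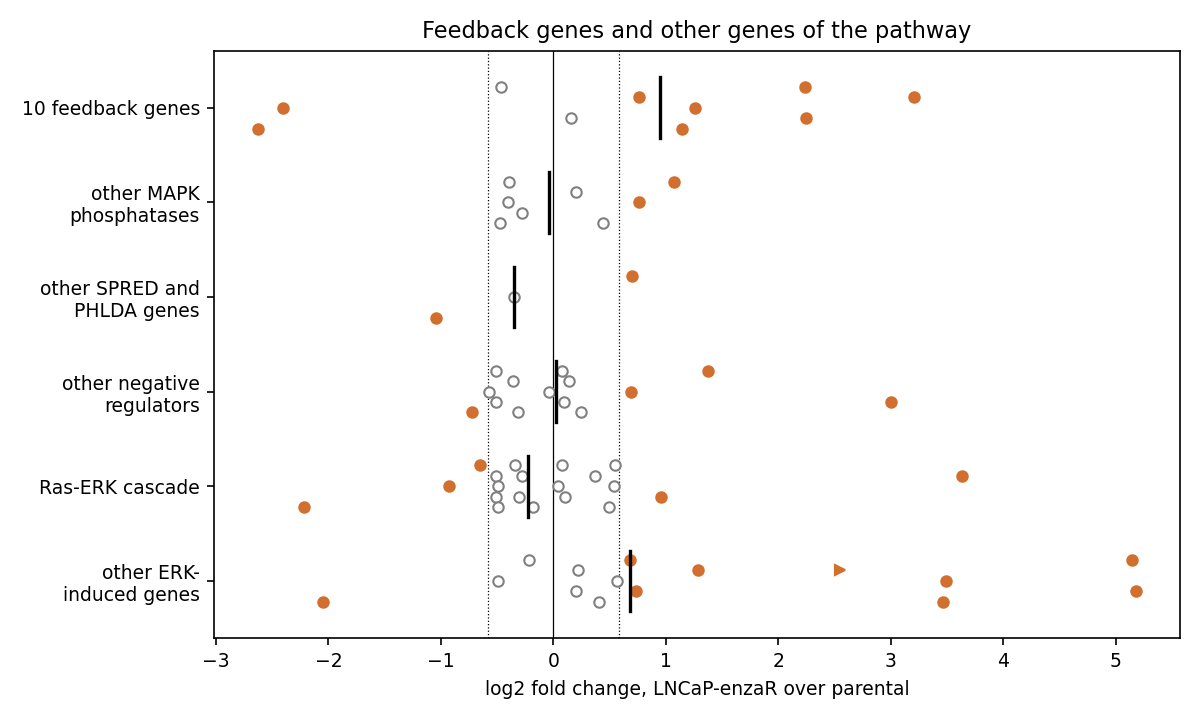
Log2 fold change (LNCaP-enzaR over parental) of the tested genes of each list, filled where past the threshold and open where not, with a bar at the list median and dotted lines at a 1.5-fold change. The triangle is EGR2 at its lower bound. The medians of the feedback genes (0.95) and of the other ERK-induced genes (0.68) lie to the right of the rest, which run from −0.35 to 0.02.

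The genes most like DUSP6 and SPRY1 across the 6 libraries were found among genes with a mean of at least 5 CPM, by the root mean square difference of log2 CPM after centering on the parental mean. For DUSP6 they were GBP2, TGFA and SLC34A3, at differences of 0.41, 0.43 and 0.44. They passed the filter through LNCaP-enzaR, with means of 1.87, 1.79 and 2.24 CPM in parental cells and 16.3, 15.5 and 21.7 CPM in LNCaP-enzaR. DUSP6 itself lay below the filter in both lines. As the libraries fall into the lines, genes alike in this measure are mainly genes of like fold change, and shared regulation was not tested. For SPRY1, the closest were DEPDC1B, RP11-17A1.3 and FNIP2, at 0.053, 0.057 and 0.058. RP11-17A1.3 passed the filter through parental cells (13.5 CPM, against 2.15 CPM in LNCaP-enzaR). TGFA encodes a ligand of the epidermal growth factor receptor, and no link between it and DUSP6 was tested.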

How the data were processed

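Polyadenylated RNA libraries of 3 flasks of each line were sequenced as paired-end reads. The authors trimmed reads with Cutadapt, aligned them to GRCh38 with STAR and GENCODE annotation, and deposited raw counts per gene from featureCounts. Strand setting, multi-mapping reads and the counting of reads or fragments are not given in the sources used here. Group and replicate were taken from sample titles.

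The 10 genes and all lists were chosen with earlier results of these data known, and the names given in the text follow a rule: all 10 genes, the 3 genes of each list with the smallest p, and the remaining family members. Others are said to be named after their values were seen. Counts were tested with edgeR 4.0.16 (R 4.3.3) after filterByExpr, which left 19711 genes with 99.96% of the counts, with TMM scaling and the robust quasi-likelihood test. The SE was derived from the fold change and the F statistic. The 95% intervals were taken from the SE with a normal quantile, so they are somewhat narrower than the F-test implies. The study's thresholds were used, and its tool, DESeq2 (1.42.0), was an alternative, as were other scalings, other filters, a replicate block and leaving out each library. Summed levels under other scalings and lengths were added after seeing the data. Exon lengths and overlaps came from GENCODE v44, whose gene spans equal those deposited for all 10 genes, and promoters from RefSeq. Of the fibroblast markers, COL1A2 was not analysed here. On counts simulated for 19168 genes, 200 were changed. At an adjusted p of 0.05 without a fold limit, the test recovered 90.9% of 4-fold, 76.1% of 2-fold and 43.3% of 1.5-fold changes. It also picked 15 unchanged genes. Recovery under the full threshold, which adds the fold limit, was not computed. In the data 42.7% of genes were called, far more than were simulated as changed, so these rates may not hold there. A total of 3 counts equals 0.0302 to 0.0382 CPM, which covers counting error only.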

Additional observations from a re-analysis of the deposited data

How the results depend on the processing

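The 8 calls among the 10 genes kept direction and side of the threshold in each alternative that tested them (DESeq2, RLE size factors, library totals, upper-quartile scaling, other filters, blocking on replicate number and leaving out any 1 library). DUSP6 could not be tested with at least 10 counts in every library. SPRY2 ranged from −0.73 to −0.22 over the fits that left out 1 library and passed the threshold without parental replicate 1. SPRED2 passed in none. With a fold of at least 2, SPRY4 was not called and 7 of the 10 genes were. Over all genes the count was 8425, 13074 without a minimum fold and 5561 with a fold of at least 2. Upper-quartile scaling shifted the median of all log2 fold changes by 0.10, and 60.9% of its calls were higher in LNCaP-enzaR, against 54.5%. With it, the summed levels differed by −1.98 for Sprouty, 0.55 for SPRED, 0.77 for DUSP and 0.039 for all 10 genes (log2), against −2.08, 0.45, 0.67 and −0.062. With canonical transcript lengths, the DUSP sum differed by 0.54 and that of all 10 genes by −0.32. ETV4, named after its values were seen and near 1 CPM in LNCaP-enzaR, went from 3.49 to 4.88 without parental replicate 2. The replicate numbers did not pair the libraries (deviations of same-numbered libraries had correlations of −0.065 to −0.00041 over genes). With the replicate block, 8212 genes were called, and so were the same 8 of the 10 genes. No pair of replicates was a duplicate, since the chi-square of their counts was at least 5.56 per degree of freedom. Low counts limit statements on DUSP6 and SPRY2.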
